A study of Mus musculus with 10 samples.

Results

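Inducible and constitutive mast cells of the mouse lower airway were compared after allergen challenge. The 6 libraries labelled B7hi HDM (3) and B7low HDM (3) were taken, by sorted population and challenge, out of 10 libraries in the series. The other 4 came from the same populations after saline (2 B7hi and 2 B7low) and entered the fit to estimate the spread between replicates. All animals were wild-type C57BL/6 mice of 5 to 7 weeks, with no transgene or deletion in any group. HDM mice received 20 µL with 3 µg of house dust mite extract into the nose under isoflurane, 2 times a week for 3 weeks, and saline mice 20 µL of saline on the same schedule. Mast cells were sorted by flow cytometry into lysis buffer and sequenced in bulk from amplified poly(A) cDNA. B7 stands for the β7 integrin chain in the literature on these cells, which calls the β7-high population inducible and the β7-low one constitutive. Whether a library came from 1 animal or a pool is not in the labels, and p-values therefore reflect only how much these libraries vary, which may be in part technical.

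Mast cells store proteases, histamine and serotonin with heparin in granules and release them when IgE bound to its receptor is crosslinked, or through receptors for basic peptides. Connective tissue mast cells are long-lived residents rich in chymases, tryptases and Mas-related receptors. Mucosal mast cells expand during allergic or parasitic inflammation from progenitors that enter tissue with α4β7 integrin, and express a different set of chymases and the αEβ7 integrin.

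The 6 libraries held 525983 to 1699667 counts, so a count of 0 in a library allows a level of up to 1.77 to 5.70 CPM (3 counts per library, counting error only). Levels are given as CPM, counts scaled to a common TMM-adjusted library size. The first principal component of the 6 libraries, 39% of the variance, put the 3 B7hi libraries (−54.0 to −25.9) apart from the 3 B7low libraries (26.0 to 66.7). The second, 23.3%, set B7hi HDM 2 apart from the others, at −60.5. That library had the lowest total, and its level of the noncoding RNA Kcnq1ot1 was 12133 CPM against 806 to 2535 CPM in the other 5.

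All 6 libraries carried the defining transcripts of mast cells. The stem cell factor receptor Kit was at 5488, 3194 and 2696 CPM in B7hi and 4537, 3830 and 4867 CPM in B7low, and the IgE receptor chain Fcer1a at 2971, 1339 and 1459 CPM against 2383, 3225 and 1917 CPM. The receptor's β chain Ms4a2 was at 840, 926 and 820 CPM against 1097, 811 and 989 CPM. The ranges overlapped in all 3 genes, and none passed the test (edgeR adjusted p = 0.80, 0.66 and 0.84). The transcript of Itgb7, the β7 chain itself, did not separate the populations either. It was at 861, 341 and 688 CPM in B7hi and 550, 731 and 919 CPM in B7low (log2 fold change −0.22 ± 0.30 SE, adjusted p = 0.83). Neither did that of the progenitor marker Cd34, at 286 to 573 CPM and 283 to 318 CPM (adjusted p = 0.51).

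Of 10533 genes tested, 73 were higher in B7hi than in B7low (0.693% of genes tested) and 226 were lower (2.15%), at an edgeR quasi-likelihood adjusted p under 0.05. The higher genes had a median log2 fold change of 1.10, with 9 genes above 2, and a median level of 423 CPM in B7hi. The lower genes had a median of −2.49, with 148 genes beyond −2 and 57 beyond −4, and a median level of 72.6 CPM in B7low. Of the 226, 12 had no count in any B7hi HDM library, and their folds are given as lower bounds. The 3 B7hi and 3 B7low levels did not overlap for any of the 299 genes, against 20.5% of all genes. Over all genes the median log2 fold change was 0.03, with 5473 of 10533 positive and 1433 at an unadjusted edgeR p under 0.05. The counts of called genes in the lists below stand against the 299 over all genes tested. Where a list has 1 or 2 calls, these are given as single genes. With each of the 10 libraries left out in turn, 6 of the 73 higher and 97 of the 226 lower genes kept their call every time, and "kept" is used below in this sense. The higher count fell to 39, 26, 14, 35, 12 and 36 without B7hi saline 1, B7hi HDM 1, 2 or 3, or B7low HDM 1 or 3, and was 112 without B7low saline 2. Leaving out B7hi HDM 2 or 3 took the lower count to 142 and 112, and leaving out B7low HDM 1 to 125.

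**Figure D1:**
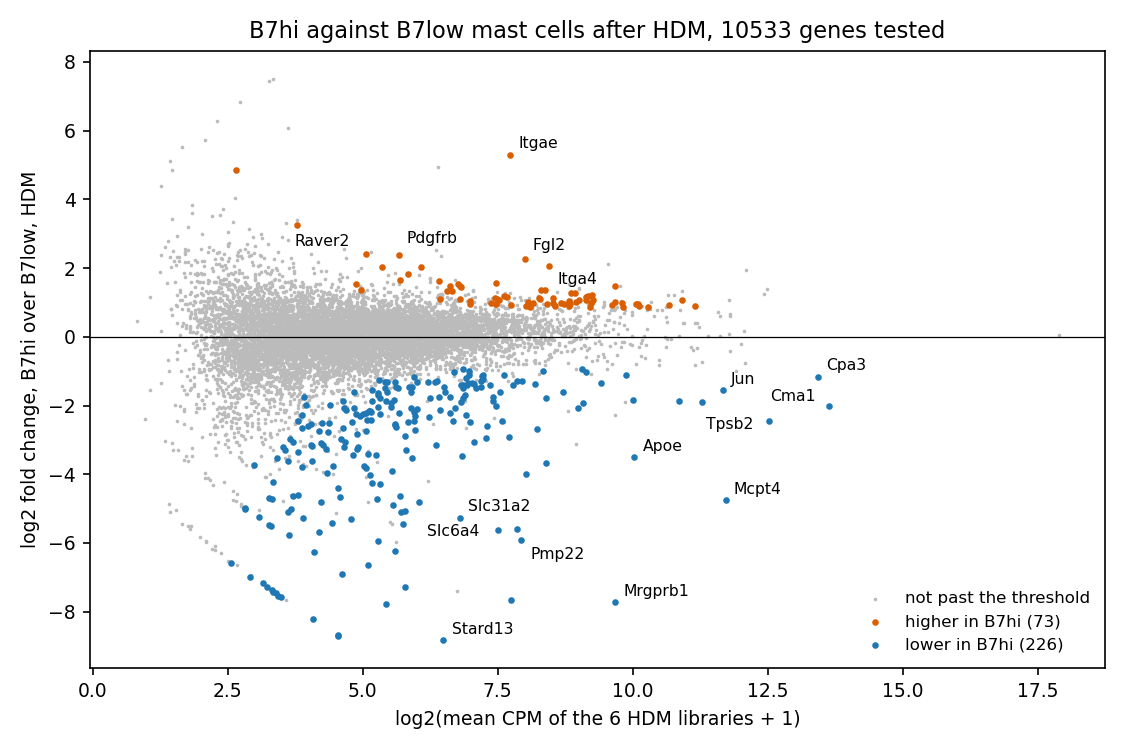
Log2 fold change (B7hi over B7low, HDM) against the log2 mean CPM of the 6 HDM libraries, 1 point per gene tested, with genes past the threshold in colour. The 226 lower genes reach from weakly to strongly expressed genes and to differences near −8.82 (Stard13), while most of the 73 higher genes lie close to 1.

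Connective tissue mast cell genes were far lower in B7hi than in B7low. Of 12 tested members, 7 passed and all were lower, with a list median of −2.61 against 0.03 over all genes. The chymase Cma1 (chromosome 14, 55941451 to 55944675) was at 6205, 4282 and 4736 CPM in B7hi and 23323, 21480 and 16088 CPM in B7low. Its neighbour Mcpt4, a second chymase (56059629 to 56062313), was at 363, 108 and 241 CPM against 8896, 5244 and 5392 CPM. The tryptase Tpsb2 was at 3331, 996 and 1103 CPM against 12325, 9146 and 8265 CPM. In each gene the highest B7hi library lay below the lowest B7low library, with log2 fold changes of −2.0 ± 0.28 (adjusted p = 7.3e-04), −4.76 ± 0.56 (8.2e-04) and −2.45 ± 0.51 (0.029). Its relative Tpsab1 was at 774, 157 and 240 CPM against 1820, 1593 and 967 CPM and did not pass (adjusted p = 0.46). Reads of 25 bases may be split between these tryptases, and between the chymases or Mas-related receptors, so the values of single members are uncertain.

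Receptors of the Mas-related family, which include the mast cell receptor for basic secretagogues, were measured for several members. Mrgprb1 (chromosome 7, 48444113 to 48456342) was at 15, 5.87 and 0.685 CPM in B7hi and 2113, 1328 and 1440 CPM in B7low (−7.72 ± 0.87, adjusted p = 0.0021). Mrgpra4 (−2.77 ± 0.47) was lower too, as was Mrgprx2, at 3.42 to 13.8 CPM against 344 to 659 CPM (−5.58 ± 0.60). The basic secretagogue receptor Mrgprb2 was at 213, 66.5 and 19.9 CPM against 1151, 749 and 775 CPM, groups that do not overlap, but missed the threshold (−3.13 ± 0.75, adjusted p = 0.086). The muscle protein gene Smpx, at most 7.83 CPM in B7hi and at least 37.3 CPM in B7low, and the adenosine receptor Adora3 (−1.14 ± 0.25) completed the 7. Cma1, Mcpt4, Mrgprb1, Mrgpra4 and Smpx kept their calls (adjusted p at most 0.031). Tpsb2 lost its call without each of 6 libraries (up to 0.095, without B7low HDM 1) and Adora3 without each of 3 (up to 0.11, without B7hi HDM 3).

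**Figure D2:**
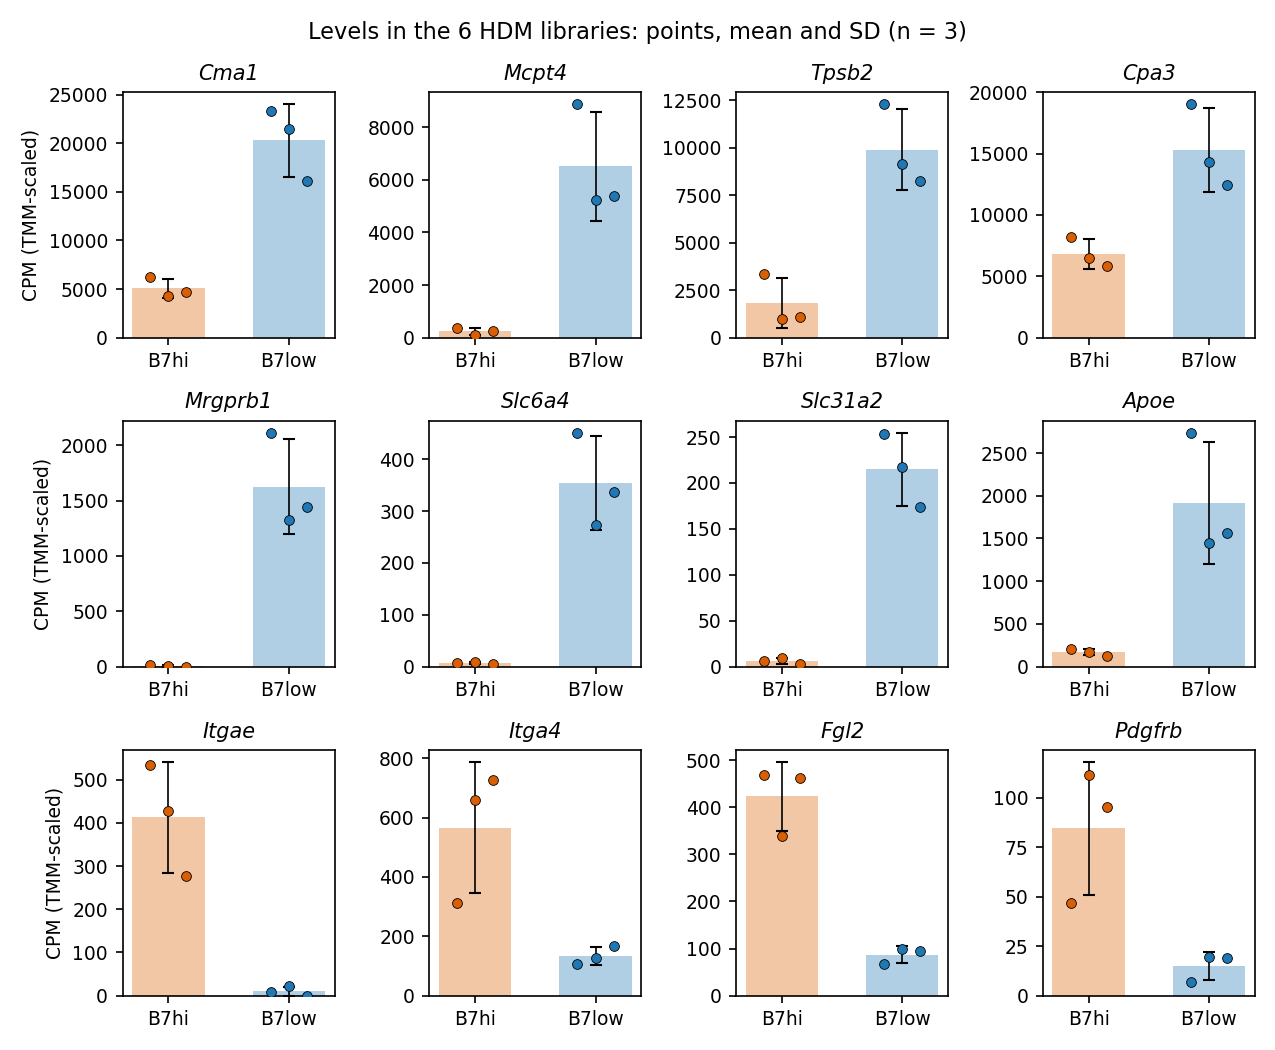
Levels (CPM, linear axes from 0) of 12 genes in the 3 B7hi and 3 B7low HDM libraries: points are libraries, bars means and whiskers the SD (n = 3). In the first 8 panels every B7low point lies above every B7hi point, as with Slc31a2 at 174 to 253 against 2.74 to 9.79 CPM, and in the last 4 (Itgae, Itga4, Fgl2 and Pdgfrb) the order is the opposite.

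The promoters of 5 genes that the comparison turns on are shown because 3 were far lower and 2 higher in B7hi. They are RefSeq sequences on GRCm38.p6, from 150 bases before the annotated start to 20 bases after it, 5′ to 3′ on the gene's strand. Capitals mark a GATA match (AGATAA or TGATAA, the motif of the mast cell factor GATA2) or an AP-1 match (TGANTCA, the motif of Fos and Jun dimers), searched on both strands. The windows are chr14:55944656-55944825 on the minus strand for Cma1, chr14:56062291-56062460 (minus) for Mcpt4, chr7:48456323-48456492 (minus) for Mrgprb1, chr2:79255276-79255445 (plus) for Itga4 and chr5:21372523-21372692 (plus) for Fgl2.
Cma1: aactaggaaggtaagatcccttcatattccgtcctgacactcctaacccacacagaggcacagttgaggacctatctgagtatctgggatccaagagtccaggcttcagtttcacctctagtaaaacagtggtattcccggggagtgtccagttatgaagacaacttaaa
Mcpt4: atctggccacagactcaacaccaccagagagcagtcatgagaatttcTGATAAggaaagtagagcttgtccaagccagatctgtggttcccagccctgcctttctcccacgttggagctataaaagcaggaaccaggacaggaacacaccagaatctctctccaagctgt
Mrgprb1: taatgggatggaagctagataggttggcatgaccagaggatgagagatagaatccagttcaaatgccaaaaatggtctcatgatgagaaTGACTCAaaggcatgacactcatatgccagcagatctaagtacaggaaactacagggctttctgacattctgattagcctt
Itga4: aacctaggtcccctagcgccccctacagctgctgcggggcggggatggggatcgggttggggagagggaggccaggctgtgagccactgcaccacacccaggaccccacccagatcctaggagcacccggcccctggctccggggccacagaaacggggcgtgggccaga
Fgl2: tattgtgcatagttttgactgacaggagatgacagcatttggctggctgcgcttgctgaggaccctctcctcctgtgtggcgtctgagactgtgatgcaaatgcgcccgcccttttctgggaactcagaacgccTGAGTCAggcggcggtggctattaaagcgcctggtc
Mcpt4 holds 1 GATA match, at −103 from the start, Mrgprb1 an AP-1 match at −61 and Fgl2 an AP-1 match at −16, while the Cma1 and Itga4 windows hold neither. Over longer RefSeq windows, from 250 bases before the start to 50 after it, 12.3% of 252 windows of the lower genes and 3.45% of 58 windows of the higher genes held the GATA motif, against 10.5% of 10824 windows of all genes tested. For AP-1 the shares were 9.13%, 8.62% and 5.14%. RefSeq windows were matched for 173 of the 226 lower, 48 of the 73 higher and 8484 of the 10533 tested genes, so these shares describe the matched genes alone.

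Genes of mucosal mast cells leaned the other way (list median 1.23, lowest −1.36). Over all genes 5473 of 10533 were positive, and of the 9 tested members 7 were positive and 2 negative. At an unadjusted edgeR p under 0.05, 3 were higher and 1 was lower. Past the adjusted threshold there were 2, both higher in B7hi. Itgae (chromosome 11, 73090583 to 73147446), the αE chain that pairs with β7 to bind E-cadherin, was at 534, 427 and 278 CPM in B7hi and 9.49, 21.5 and 0 CPM in B7low. Its log2 fold change was 5.30 ± 0.98 (adjusted p = 0.035). Itga4 (chromosome 2, 79255426 to 79333123), the α4 chain of α4β7, was at 313, 660 and 726 CPM against 107, 127 and 167 CPM (2.07 ± 0.34, adjusted p = 0.0029). Neither gene's groups overlapped. The Itga4 call was kept, and that of Itgae was lost without each of 7 libraries, up to an adjusted p of 0.18 without B7low HDM 1.

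The mucosal proteases varied too much within a population to pass. Mcpt1 was at 10238, 3120 and 7618 CPM in B7hi and 8.13, 4826 and 587 CPM in B7low (adjusted p = 0.80), and Mcpt2 at 10903, 4893 and 7481 CPM against 1111, 6856 and 1932 CPM (0.79). B7low HDM 2 was the library that put the 2 populations' ranges over each other in both genes. Granzyme B (Gzmb) was even across B7hi, at 8299, 8107 and 8375 CPM, and uneven across B7low, at 877, 2966 and 5665 CPM (1.38 ± 0.57, adjusted p = 0.33).

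Other integrins and adhesion molecules that passed were lower in B7hi. Itga9, a chain that binds tenascin and osteopontin, was at 2.05 to 5.87 CPM against 18.3 to 47.4 CPM (−3.10 ± 0.53). The widely shared β1 chain Itgb1 was at 80.0, 52.8 and 73.3 CPM against 245, 154 and 135 CPM (−1.34 ± 0.30, adjusted p = 0.022). Of 19 integrin chains tested, 2 were thus higher and 2 lower, with a median of −0.10. Among 27 homing and adhesion receptors 2 were lower. These were the mast cell adhesion molecule Cadm1, at 1.25, 5.87 and 3.42 CPM against 106, 85.2 and 77.7 CPM (−4.89 ± 0.55, adjusted p = 9.9e-05), and the complement C3a receptor C3ar1 (−3.16 ± 0.67). The tetraspanin Tspan2, 1 of 22 tetraspanins tested, was at 9.38 to 13 CPM against 42.9 to 56.9 CPM. Itga9, Cadm1 and Tspan2 kept their calls, while Itgb1 and C3ar1 lost theirs without each of 3 and 4 libraries (up to 0.13 and 0.19, both without B7low HDM 1).

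Among genes that make, move and degrade amines, the serotonin transporter differed most clearly. Slc6a4, the plasma membrane serotonin transporter (chromosome 11, 76998603 to 77032340), was at 7.5, 9.79 and 5.48 CPM in B7hi and 451, 273 and 337 CPM in B7low. All 3 B7low libraries lay far above the highest B7hi library, and the log2 fold change was −5.61 ± 0.37 (adjusted p = 3.3e-07). Maob, a mitochondrial enzyme that degrades amines, was at 65.6, 29.4 and 17.8 CPM against 153, 146 and 96.0 CPM (−1.76 ± 0.42, adjusted p = 0.034). Histidine decarboxylase (Hdc), which makes histamine, was at 2410, 1358 and 1143 CPM against 3900, 2496 and 2331 CPM with overlapping ranges (adjusted p = 0.27). The serotonin-forming hydroxylase Tph1 was at 943, 585 and 749 CPM against 824, 1189 and 593 CPM (adjusted p = 0.89). The histamine receptor Hrh4 was at 15.8 to 21.5 CPM against 42.9 to 55.6 CPM (−1.43, adjusted p = 0.067). Of 15 amine genes tested 2 were lower, with a median of −0.23. The Slc6a4 call was kept (adjusted p at most 2.1e-05) and that of Maob was lost without each of 4 libraries (up to 0.12, without B7hi HDM 2).

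Of 22 core mast cell identity genes tested, 3 were lower in B7hi and none higher (median −0.22). Besides Slc6a4 these were Rgs13, a brake on G protein signalling, at 5.00, 7.83 and 0.685 CPM against 114, 83.3 and 92.3 CPM (−4.63 ± 0.52, adjusted p = 1.1e-04), and the carboxypeptidase Cpa3 (chromosome 3, 20215620 to 20242181). Cpa3 was at 8224, 6480 and 5848 CPM in B7hi and 19072, 14350 and 12430 CPM in B7low (−1.16 ± 0.27, adjusted p = 0.028). The IL-33 receptor Il1rl1 was at 1439, 1112 and 792 CPM against 1861, 1764 and 1678 CPM and did not pass (−0.67, adjusted p = 0.18). Cpa3 lost its call without each of 3 libraries, up to 0.18 without B7low HDM 1, and Rgs13, the single one of 13 RGS genes to pass, kept its call.

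Heparin is the polysaccharide that holds proteases in the granule. In the list for synthesis of heparin, heparan sulfate and related chains, 4 of 33 tested genes were lower (median −0.22). The enzymes Hs3st3a1 and Hs3st3b1 add sulfate at the 3-O position. Hs3st3a1 was at 0, 1.96 and 0 CPM in B7hi, 1 count in all, and 21.7, 18.9 and 26.5 CPM in B7low, a level 80.5-fold lower (95% counting interval 14.1 to 3217). Hs3st3b1 was at 2.05 to 11.7 CPM against 38.4 to 63.7 CPM (−3.27 ± 0.56). The chain polymerase Ext1 (−1.64 ± 0.34) and Ndst2 (−1.01 ± 0.23), which starts the sulfation of heparin, were lower by less. Hs3st3a1 and Hs3st3b1 kept their calls, Ext1 lost its own without 2 libraries (up to 0.080, without B7low HDM 1) and Ndst2 without 3 (up to 0.13, without B7hi HDM 3), which left 2 of the 4.

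Lysosomal genes that passed were lower in B7hi as well, 5 of 54 tested, with a median of −0.37. The sulfatase Ids was at 46.3, 35.2 and 13.7 CPM in B7hi and 157, 120 and 138 CPM in B7low (−2.13 ± 0.35, adjusted p = 0.0022), with no overlap between the populations. The glucosaminidase Naglu (−1.60 ± 0.31), the saposin precursor Psap (−1.41 ± 0.26) and Gnptab (−1.17 ± 0.28), which makes the mannose 6-phosphate address of lysosomal enzymes, were lower too. Of 40 genes of granule formation and exocytosis, Cpa3 and Lyst, which governs granule size, were lower, Lyst at 7.5, 15.7 and 12.3 CPM against 75.9, 38.4 and 44.9 CPM (−2.21 ± 0.41). Ids, Psap and Lyst kept their calls. Naglu was at 0.055 without B7hi HDM 3 and Gnptab lost its call without 7 libraries (up to 0.10, without B7low HDM 1), and without B7hi HDM 3 the lysosomal count was 3.

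In the IgE signalling list, 2 of 36 tested genes passed, against 299 of all 10533 genes, and both were lower in B7hi (median −0.14). The kinase Syk, which couples the receptor to the cell, was at 80.0, 64.6 and 58.9 CPM against 156, 139 and 119 CPM (−1.01 ± 0.25, adjusted p = 0.035). Cblb, a ubiquitin ligase that restrains this pathway, was at 106, 84.2 and 60.3 CPM against 168, 159 and 171 CPM (−0.99 ± 0.25, 0.039). Both differences were near a factor of 2 and close to the threshold. The guanine exchange factor Rasgrp4 was at 2.05 to 9.79 CPM against 17.6 to 25.8 CPM (adjusted p = 0.096). Syk lost its call without each of 6 libraries and Cblb without each of 7 (up to 0.16 without B7low HDM 1 and 0.18 without B7hi HDM 3), and without either saline B7hi library, B7hi HDM 2 or 3 or B7low HDM 1 or 2 neither was called.

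Inhibitory and regulatory receptors were lower in B7hi in 5 of 31 tested cases and higher in 1, with a median of −0.63. Sirpa, which binds CD47 and inhibits uptake and activation, was at 48.8, 39.1 and 30.1 CPM in B7hi and 163, 187 and 152 CPM in B7low (−2.08 ± 0.31, adjusted p = 9.8e-04). The inhibitory IgG receptor Fcgr2b was at 18.8, 27.4 and 26.0 CPM against 129, 83.9 and 94.2 CPM (−2.10 ± 0.38), and the sialic acid receptor Cd33 at 12.3 to 31.3 CPM against 78.1 to 102 CPM (−2.06 ± 0.34). In all 3 genes the populations were apart by more than their spread. Cd200r3 (−1.36 ± 0.30), an activating CD200 receptor relative, was lower by less, and Siglecg had 2 counts in B7hi against 57 in B7low, 26.4-fold lower (6.98 to 223). The checkpoint receptor Havcr2 (TIM-3) was higher, at 156, 64.6 and 44.5 CPM against 20.3, 31.9 and 22.1 CPM (1.83 ± 0.42, adjusted p = 0.025). Sirpa, Fcgr2b and Cd33 kept their calls. Those of Cd200r3, Siglecg and Havcr2 were lost without 4, 6 and 3 libraries (up to 0.11 without B7hi HDM 2, 0.20 without B7low HDM 1 and 0.21 without B7hi HDM 1), and 3 lower calls were left without B7hi HDM 2 or 3 or B7low HDM 1 or 2.

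Among 37 cytokine receptors tested, 2 were higher and 1 lower (median −0.27). The IL-10 receptor chain Il10rb was evenly lower, at 36.9, 33.3 and 30.8 CPM in B7hi and 119, 124 and 103 CPM in B7low (−1.77 ± 0.25, adjusted p = 7.3e-04), and its call was kept. The costimulatory receptor Tnfrsf9 (4-1BB) was at 45.0, 5.87 and 17.8 CPM against 4.07, 2.60 and 1.26 CPM (3.24 ± 0.78). The IL-3 receptor β chain Csf2rb2 was at 613, 419 and 434 CPM against 205, 297 and 245 CPM (0.97 ± 0.25). When B7hi HDM 1 or 3 or B7low HDM 1 was left out, neither Tnfrsf9 nor Csf2rb2 passed. They lost their calls without 5 and 7 libraries in all, up to an adjusted p of 0.25 (B7hi HDM 1) and 0.23 (B7low HDM 1). Of the 18 cytokines tested, 4 were at an unadjusted edgeR p under 0.05, against 1433 of all 10533 genes. DESeq2 called 2 and limma-voom 1, but none passed with edgeR. The same held for 10 chemokines (4 unadjusted, 2 by DESeq2 and 0 by limma-voom) and 19 genes of prostaglandin and leukotriene metabolism (3, 2 and 1), of which the leukotriene B4 receptor Ltb4r1 was nearest, at 33.8, 84.2 and 78.8 CPM against 5.42, 24.7 and 30.3 CPM (adjusted p = 0.078).

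Genes that handle nucleosides, sialic acid, metals, lipoproteins and lactate held 8 called genes, all lower in B7hi, of which the adenosine receptor Adora3 is given above. The nucleoside transporter Slc29a1 was at 56.9, 39.1 and 47.9 CPM in B7hi and 476, 373 and 255 CPM in B7low (−2.91 ± 0.39, adjusted p = 8.2e-04). The copper transporter Slc31a2 was at 6.25, 9.79 and 2.74 CPM against 253, 217 and 174 CPM (−5.26 ± 0.47, adjusted p = 1.6e-05). The zinc transporter Slc30a2 was at 24.4, 0 and 11 CPM against 100, 81.3 and 67.6 CPM (−2.58 ± 0.53). The populations did not overlap in any of them, although B7hi HDM 2 had no Slc30a2 count. Apolipoprotein E (Apoe; chromosome 7, 19696109 to 19699188), the lipid carrier, was at 206, 176 and 129 CPM against 2738, 1445 and 1569 CPM (−3.49 ± 0.35, adjusted p = 4.6e-05). The sialyltransferase St3gal5, which makes the ganglioside GM3, was at 6.25, 7.83 and 0.685 CPM against 167, 116 and 90.4 CPM (−4.81 ± 0.54), and St6galnac3 was lower by −2.55 ± 0.42. The monocarboxylate transporter Slc16a1, the single called gene of 22 in glycolysis and lactate transport, was at 11.7 to 22.5 CPM against 53.1 to 89.5 CPM. By list, and against 2.15% of all genes tested, 2 of 15 purinergic, 2 of 11 sialyltransferase, 2 of 25 copper and zinc and 1 of 33 cholesterol genes were lower. The list medians were −0.13, −0.68, 0.09 and 0.14. Of these calls, those of Adora3 and Slc30a2 were lost without 3 and 2 libraries (up to 0.11 and 0.075, both without B7hi HDM 3), and the other 6 were kept.

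**Figure D3:**
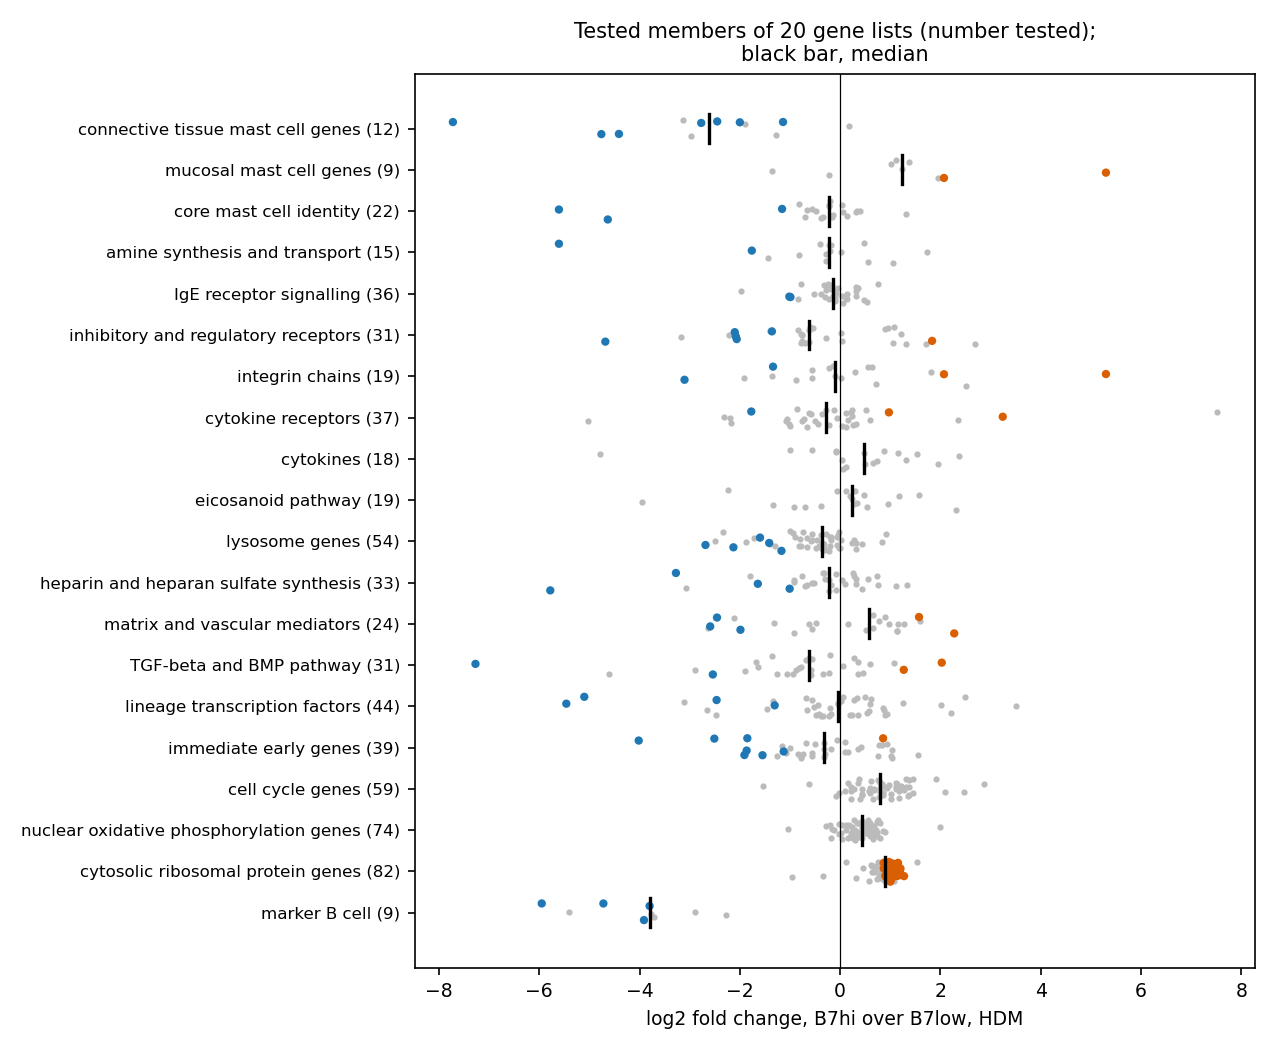
Log2 fold changes (B7hi over B7low, HDM) of the tested members of 20 gene lists, 1 point per gene, coloured where the gene passed the threshold, with a black bar at the list's median. The connective tissue (−2.61) and B cell (−3.80) medians lie far below 0, and the 82 ribosomal protein genes form a narrow band around 0.90.

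Transcription factors that passed were lower in B7hi, 4 of 44 lineage factors tested (median −0.03). The homeobox factor Meis2 was at 0.625, 11.7 and 0 CPM against 122, 93.0 and 89.1 CPM (−5.46 ± 0.77, adjusted p = 0.0018), and its call was kept. Hes1, a target of Notch, was at 68.1, 33.3 and 69.2 CPM against 283, 304 and 385 CPM (−2.46 ± 0.52), and the progenitor factor Myb at 36.9, 45.0 and 44.5 CPM against 98.9, 74.8 and 136 CPM (−1.31 ± 0.29). Irf8, a factor of B cells and myeloid cells, had 2 counts in B7hi against 81 in B7low, 37.5-fold lower (10 to 315). Without B7hi HDM 2 or 3 or B7low HDM 1 only 1 of the 4 was called, and Hes1, Myb and Irf8 were at up to 0.099, 0.099 and 0.14. The haematopoietic factor Lyl1, at 17.8 to 23.8 CPM against 43.6 to 65.7 CPM, lay just outside the threshold (−1.34, adjusted p = 0.053).

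Immediate early genes, which cells switch on within minutes of stimulation and also during tissue dissociation, were lower in B7hi in 7 of 39 tested cases and higher in 1 (median −0.32). The AP-1 subunit Jun was at 1878, 1765 and 1344 CPM in B7hi and 6131, 4120 and 4331 CPM in B7low (−1.55 ± 0.29, adjusted p = 0.0076). Fos, with which it pairs, was at 913, 1258 and 994 CPM against 4477, 3493 and 3903 CPM (−1.91 ± 0.41), and the phosphatase gene Dusp1 at 560, 1045 and 787 CPM against 3383, 2288 and 3021 CPM (−1.86 ± 0.37). Each was lower in all 3 B7hi libraries than in any B7low library. The Krüppel-like factors Klf2 (−4.02 ± 0.76) and Klf4 (−2.51 ± 0.48), Ier2 (−1.85 ± 0.42) and the stress gene Ppp1r15a (−1.13 ± 0.28) were lower too. Ier3, an early gene linked to survival, was higher by 0.86 ± 0.22, at 1916, 1392 and 1527 CPM against 915, 946 and 808 CPM. No call of this list was kept, and 1 lower gene was left without B7hi HDM 3 and 4 by limma-voom. Without B7hi HDM 3, Jun was at 0.055 and Fos at 0.12. Dissociation was not measured, and its part in these genes was not tested.

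Signalling by the TGF-β family differed in single members. Bmp2, a secreted bone morphogenetic protein, was at 0, 1.96 and 0.685 CPM in B7hi and 224, 52.7 and 46.1 CPM in B7low, 148-fold lower (40.5 to 1224). Bmp7, a ligand of the same family, was higher, at 196, 76.3 and 51.4 CPM against 13.6, 26.0 and 37.9 CPM (2.03 ± 0.49, adjusted p = 0.041). The Smad corepressor Skil was at 863, 709 and 488 CPM against 312, 275 and 269 CPM (1.27 ± 0.23), and the ligase Smurf1, which degrades Smads, at 1.88 to 7.53 CPM against 24.4 to 29.9 CPM (−2.54 ± 0.56). So 2 of 31 tested genes were higher and 2 lower, with a median of −0.63. In the Wnt pathway 1 of 26 passed, against 299 of all 10533 genes. This was the feedback inhibitor Nkd1, at 1.88, 1.96 and 0 CPM against 121, 100 and 61.3 CPM (−6.24 ± 0.58, adjusted p = 2e-05). Nkd1 and Skil kept their calls. Bmp2 and Smurf1 both lost theirs without B7hi HDM 1, up to 0.095 (Bmp2, without B7hi HDM 3) and 0.089, and Bmp7 without each of 9 libraries (up to 0.22, without B7hi HDM 1).

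Matrix and vascular mediators went both ways, 2 of 24 tested higher and 3 lower (median 0.58). Fgl2 (chromosome 5, 21372642 to 21378374), a secreted fibrinogen-like protein with prothrombinase and immunoregulatory activity, was at 468, 339 and 463 CPM in B7hi and 66.4, 99.5 and 94.8 CPM in B7low (2.28 ± 0.30, adjusted p = 3.8e-04). The thrombin receptor F2r was at 323, 213 and 258 CPM against 48.8, 120 and 95.4 CPM (1.57 ± 0.30, adjusted p = 0.0072). Both calls were kept. The urokinase Plau, which activates plasminogen, was at 34.4, 3.91 and 13 CPM against 73.2, 105 and 136 CPM (−2.46 ± 0.48), and the protease Adamts9 (−1.99 ± 0.49) and the collagen crosslinker Loxl2 (−2.59 ± 0.62) were lower at low levels. None of these 3 was called without B7hi HDM 3, at an adjusted p up to 0.060, 0.23 and 0.18 over the single libraries left out.

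The genes highest in B7hi by the rule for named genes were led by Itgae and Tnfrsf9. The growth factor receptor Pdgfrb was at 46.9, 112 and 95.2 CPM against 6.78, 19.5 and 19.0 CPM (2.38 ± 0.41, adjusted p = 0.0034) and kept its call. It is also a fibroblast marker, and the summed level of the other 12 fibroblast and muscle markers was 1.87, 39.1 and 4.80 CPM in B7hi and 12.2, 19.5 and 33.5 CPM in B7low. Raver2, an RNA-binding protein, was at 76.3, 58.7 and 28.1 CPM against 10.8, 12.4 and 7.58 CPM (2.40 ± 0.49, 0.012). The proapoptotic BH3 protein Bcl2l11, the single called gene of 26 survival genes, was at 70.6, 72.4 and 86.3 CPM against 36.6, 15.6 and 24.0 CPM (1.64 ± 0.37), and the kinase Jak1 at 2117, 832 and 677 CPM against 389, 429 and 478 CPM (1.49 ± 0.35). Galm, which interconverts galactose forms (2.02 ± 0.40), Smim3 (1.63 ± 0.36), Csrp1 (1.55 ± 0.35), the reductase Gmpr (1.52 ± 0.34), Rasgef1b (1.48 ± 0.33), the serine protease inhibitor Serpini1 (1.48 ± 0.29), Fam46c (1.46 ± 0.30) and the sugar phosphate mutase Pgm1 (1.36 ± 0.35) followed. The calls of Raver2, Bcl2l11, Jak1 and the 8 just named were lost without 1 to 8 libraries each, up to an adjusted p of 0.18 (Pgm1 without B7hi HDM 3).

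The genes lowest in B7hi had few or no counts in that population. Stard13 (chromosome 5, 151037510 to 151233836), which inactivates small GTPases, was at 0, 1.96 and 0 CPM in B7hi, 1 count in all, and 224, 168 and 140 CPM in B7low, 598-fold lower (107 to 23654; adjusted p = 3.3e-07). The complement component C2 had 1 count against 314 (291-fold lower, 51.8 to 11516), the potassium channel Kcnq1 2 against 236 (109-fold, 29.9 to 907), the neuronal membrane protein Gpm6a 1 against 102 (94.4-fold, 16.6 to 3765) and the kinase Dclk3 3 against 152 (46.9-fold, 15.7 to 230). The secreted protein Crispld2 and the kinase Stk32b had no B7hi count, which makes them at least 41.7-fold and 34.6-fold lower (3 counts over the group), as does Evc, a ciliary protein, at least 22.5-fold. The myelin protein Pmp22 was at 16.3, 0 and 2.74 CPM against 571, 444 and 418 CPM (−5.91 ± 0.83). All of these but Evc (up to 0.084, without B7low HDM 1) kept their calls.

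B cell genes stood among the lowest in B7hi, and their level differed between the 3 B7low libraries. Summed over 10 B cell markers, the level was 7.5, 39.1 and 32.2 CPM in the 3 B7hi libraries and 746, 494 and 93.5 CPM in B7low HDM 1, 2 and 3. Of 9 markers tested, 4 were lower, with a median of −3.80 (8 at an unadjusted p under 0.05, 5 called by DESeq2 and 1 by limma-voom). The antigen receptor chain Cd79b was at 1.88, 7.83 and 8.22 CPM against 123, 103 and 31.0 CPM (−3.91 ± 0.69), and Cd79a at 1.88, 0 and 0.685 CPM against 149, 68.9 and 8.85 CPM. Ms4a1 (CD20) and Fcer2a (CD23) were lower by −4.72 ± 0.88 and −3.80 ± 0.86. Faim3, Ly6d and Blnk, which B cells express and which were not on the list, had the same order in B7low, at 74.5, 54.6 and 5.69 CPM, 58.3, 38.4 and 6.32 CPM, and 74.5, 33.8 and 32.9 CPM. Faim3 had no B7hi count (at least 45.7-fold lower), Ly6d had 2 (51.8-fold, 14 to 433) and Blnk 1 (147-fold, 26.0 to 5849). Without B7hi HDM 3, 1 of the 4 markers was called, and without B7low HDM 3 there were 6. Genes of MHC class II and costimulation summed to 160, 172 and 579 CPM in B7hi and 1654, 1537 and 234 CPM in B7low, and endothelial markers to 176, 125 and 179 CPM against 903, 243 and 119 CPM, with none called by edgeR, DESeq2 or limma-voom (3 of 10 and 5 of 7 at an unadjusted p under 0.05). Dendritic cell markers summed to 28.8 to 31.3 CPM against 217, 118 and 41.1 CPM. Ccr7 alone was at 165, 93.7 and 9.48 CPM in B7low. The rest of the list was at 28.1, 31.3 and 25.3 CPM in B7hi and 51.5, 24.7 and 31.6 CPM in B7low. Of 4 dendritic cell markers tested, edgeR and limma-voom called 0 and DESeq2 called 2 lower.

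**Figure D4:**
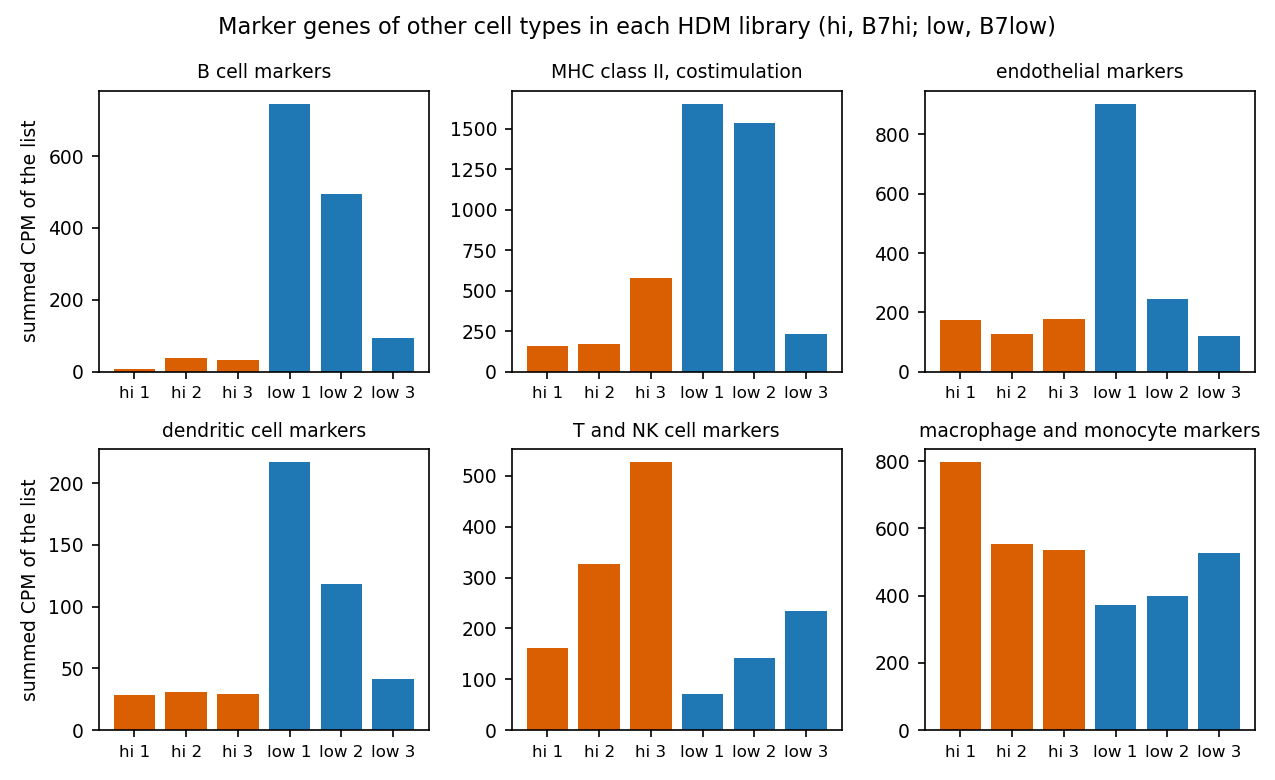
Summed CPM of 6 marker lists in each HDM library (bars, 1 per library, axes from 0). B cell markers reach 746 and 494 CPM in B7low HDM 1 and 2 against 93.5 CPM in B7low HDM 3, and endothelial markers stand out in B7low HDM 1 alone (903 CPM).

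The part of these other cells in the lower genes was not tested. With B7low HDM 3, the B7low library with the lowest B cell level, as the single library of its population, assumed to vary like the others, 54 genes were lower and 5 higher. Mcpt4 then differed by −4.48, Slc6a4 by −5.54, Apoe by −3.20, Slc31a2 by −4.95, Cadm1 by −4.67 and Stard13 by −8.48. Cma1 was at −1.66, Mrgprb1 at −7.54 and Sirpa at −1.94. All of these differences were smaller in size than with 3 libraries. The genes had been named from their calls with 3 libraries, a choice that favours smaller values in a part of the same data. Cd79b was at −2.43 and Cd79a at −2.97. B7low HDM 3 was kept for its low B cell level, so smaller B cell differences were fixed by that choice. These values therefore cannot tell which differences depend on B cells. In bulk samples, fewer cells of a type and less RNA per cell cannot be told apart. Of the T and NK cell markers, Nkg7, a protein of cytotoxic granules, held most of the sum, at 139, 245 and 353 CPM in B7hi and 33.9, 89.1 and 224 CPM in B7low, and none of 9 tested passed with edgeR, DESeq2 or limma-voom (1 at an unadjusted p under 0.05). Macrophage and monocyte markers summed to 535 to 796 CPM and 371 to 528 CPM, nearly all of it Cx3cr1. Of 7 basophil markers tested 2 were lower, the protease Prss34, at 48.1, 11.7 and 25.3 CPM against 390, 548 and 528 CPM (−4.0 ± 0.40, adjusted p = 6.1e-05, kept), and Cd200r3, while the protease Mcpt8 was at 821, 1288 and 1552 CPM against 82.7, 368 and 383 CPM (2.12, adjusted p = 0.11). DESeq2 called 1 of the 7 higher (Mcpt8, DESeq2 adjusted p = 0.031) and 3 lower, and limma-voom 0 higher and 2 lower.

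Genes of the cytosolic ribosome were higher in B7hi, 28 of 82 tested, with a median of 0.90. The value was positive in 80 of them, against 5473 of all 10533 genes tested. Ribosomal genes made up 28 of the 73 higher genes. Rps24 was at 802, 846 and 679 CPM against 291, 408 and 335 CPM (1.17 ± 0.22, adjusted p = 0.0072), Rpl23a at 894, 824 and 768 CPM against 423, 414 and 343 CPM (1.08 ± 0.21, 0.0084) and Rps12 at 641, 705 and 622 CPM against 232, 383 and 196 CPM (1.28 ± 0.26, 0.011). Summed over 85 genes, they took 55540, 51550 and 51910 CPM in B7hi and 25660, 35700 and 24600 CPM in B7low, so the 2 populations did not overlap. Leaving out B7hi HDM 2 left 1 of them called and leaving out B7low HDM 2 gave 44, and the number was 56 by DESeq2, 53 by limma-voom, and 8 without both B7low saline 2 and B7hi HDM 2. Genes of nuclear-encoded oxidative phosphorylation were positive in 66 of 74 cases (median 0.44) and cell cycle genes in 55 of 59 (median 0.80). No gene of either list passed with edgeR. Over all genes tested, 1433 had an unadjusted p under 0.05, DESeq2 called 163 higher and 344 lower, and limma-voom 130 and 224. In these lists 13 and 11 had an unadjusted p under 0.05, with 0 and 2 called by DESeq2 and 0 and 2 by limma-voom. Stmn1, a microtubule regulator of dividing cells, was nearest, at 67.5, 84.2 and 125 CPM against 12.2, 52.0 and 33.5 CPM (adjusted p = 0.073), and the proliferation marker Mki67 was at 25, 45.0 and 116 CPM against 36.6, 41.0 and 46.8 CPM (0.67). The unfolded protein response had no called gene of 40 (6 unadjusted, 1 by DESeq2 and 0 by limma-voom). Of 40 interferon-stimulated genes 1 was lower (Stat2, −1.31 ± 0.33), and of 5 nuclear noncoding RNAs 1 (Neat1, −0.94 ± 0.24), calls lost without 8 and 7 libraries (up to 0.14 and 0.20, both without B7hi HDM 3). Over all genes tested 2.15% were lower.

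The differences after HDM were mostly those seen with saline, in libraries that the HDM comparison does not share except for the estimate of the spread. Of the 299 genes, 292 (97.7%) had the same sign with saline, against 64.9% of all genes, and 216 also passed there, all in the same direction (72.2% of the calls with HDM and 31.3% of the 689 with saline, which were 6.54% of the genes tested). The difference was smaller with HDM than with saline in 189 of the 299 genes, 187 of them among the 216, which were chosen in part by their size with saline. Cma1 differed by −2.0 with HDM and −3.87 with saline, Tpsb2 by −2.45 and −5.10, and Slc30a2 by −2.58 and −7.70. Apoe (−3.49 and −3.41) and Pdgfrb (2.38 and 2.38) differed by similar amounts. Stard13 was at −8.82 and −9.63, but it had almost no counts in the B7hi HDM libraries, so these fitted sizes cannot be compared. Fgl2 (2.28 and 1.08) and Raver2 (2.40 and −0.54) passed with HDM and had adjusted p = 0.082 and 0.67 with saline, but the difference between the 2 did not pass (interaction adjusted p = 0.50 and 0.28).

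**Figure D5:**
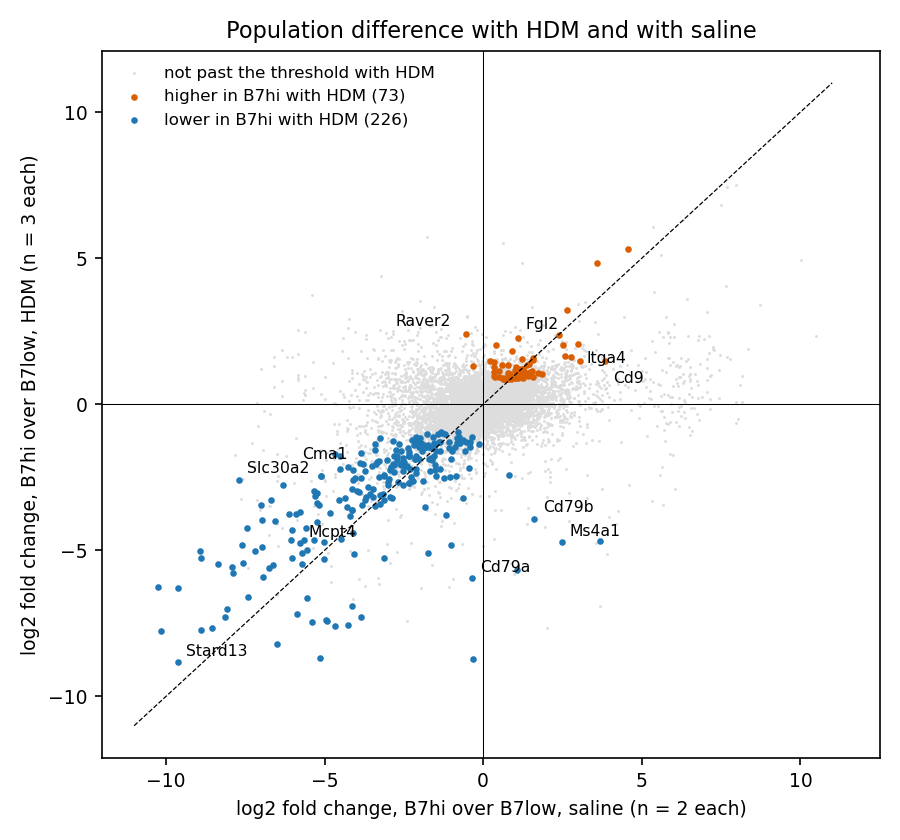
Log2 fold change of B7hi over B7low with HDM (vertical, 3 libraries each) against that with saline (horizontal, 2 each), 1 point per gene, coloured where the gene passed with HDM; the dashed line marks equal values. Most lower genes lie on or above the line, as Cma1 does (−2.0 with HDM and −3.87 with saline), and Cd79b, Ms4a1 and Cd79a lie apart at the lower right.

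Whether these sizes differed was tested by the interaction, the log2 fold change with HDM minus that with saline. No gene passed with edgeR (0% of 10533), with 901 at an unadjusted p under 0.05, 44 called by DESeq2 and 0 by limma-voom. The tetraspanin Cd9 was among the 3 genes nearest to the threshold. It was at 209, 200 and 196 CPM in B7hi and 182, 80.7 and 161 CPM in B7low with HDM, and at 468 and 246 CPM against 17.5 and 31.8 CPM with saline (interaction −3.32 ± 0.55, adjusted p = 0.054). Adora3 (2.11 ± 0.40, 0.15), Tph1 (3.12 ± 0.64, 0.20), Cma1 (1.87 ± 0.44, 0.22) and Il1rl1 (1.37 ± 0.38, 0.28) had positive values of this term, a smaller gap with HDM. Tph1 in B7hi was at 39.3 and 152 CPM with saline and 585 to 943 CPM with HDM, and in B7low at 903 to 1021 CPM and 593 to 1189 CPM. These interaction genes were chosen after their values were seen.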

How the data were processed

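RNA of sorted mast cell populations was sequenced from SmartSeq2 libraries, as read pairs of 25 bases. The deposited values are raw counts per gene symbol, 22815 symbols in 10 libraries; no normalization by the authors was seen in them. Cufflinks 2.2.1, TopHat2 2.0.10, the build mm10 and DESeq2 appear without roles in the submitters' processing notes. How reads were counted, on which annotation and with which strand setting is not given in the sources used here. Without strand, a gene and its antisense partner cannot be told apart.

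Counts were tested with edgeR 4.0.16 (R 4.3.3; quasi-likelihood, robust, TMM scaling, edgeR's default count filter) over 4 groups and all 10 libraries. P-values were adjusted by Benjamini-Hochberg over 10533 genes, with a threshold of 0.05. SE is the log2 fold change divided by the square root of F. DESeq2 1.42.0, limma-voom (limma 3.58.1) and other filters, scalings and left-out libraries were alternatives. The test was checked on simulated data. Members, gene lists and tests were chosen with earlier results of these data known. Named genes were up to 20 with the largest change each way (at least 20 CPM in the higher group, ranges apart), up to 6 per list by p, and a set list of mast cell genes. Others were chosen after their values were seen, and some genes are not reported here.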

Additional observations from a re-analysis of the deposited data

How the results depend on the processing

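Against 73 higher and 226 lower genes, DESeq2 gave 163 and 344, limma-voom 130 higher, and no count filter 175 and 373. Leaving out 1 library gave 12 to 112 higher and 112 to 256 lower. Without both B7low saline 2 and B7hi HDM 2 there were 29 higher. Without both B7low HDM 1 and 2, an alternative chosen after seeing the data, there were 5 higher and 54 lower. No called gene changed sign under any alternative, and 6 higher and 93 lower genes kept their call under DESeq2, limma-voom and every single library left out. The interaction (population difference with HDM minus that with saline), with 0 genes, gave 2 with library size alone, 44 by DESeq2, 143 with no count filter and 0 to 3 with 1 library out. B7hi against B7low with saline, 689 genes, gave 1078 with no count filter and 226 to 685 with 1 library out. The causes were not tested.

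Whether B7hi and B7low libraries with the same replicate number came from the same animals is not in the labels. Their deviations from the group means correlated at 0.0219, −0.112 and −0.0491, which cannot show whether they were paired. With a replicate block there were 85 higher and 228 lower genes, with 254 of the 299 kept, and Kcnq1ot1 changed from 1.06 to −0.069. Other genes that changed sign did not pass the test in either fit. With 1 library out, Itgb7 ranged from −0.50 to 0.044 and Kcnq1ot1 from −1.08 to 1.58, the changed sign in both coming without B7hi HDM 2, and without both it and B7low saline 2 they were at 0.055 and −1.07. Mki67 ranged from −0.29 (without B7hi HDM 3) to 0.99 and Tph1 from −0.41 to 0.10 (without B7low HDM 2). Without both B7low HDM 1 and 2, Tph1 was at 0.36 and Fcer1a at 0.011. Depth limits the low genes: B7hi HDM 2 has the highest floor, 5.70 CPM.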

Other observations

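The receptor genes Ramp1, Calcrl and Ednra, chosen after their values were seen, were lower in B7hi. Ramp1, a subunit of the receptor for calcitonin gene-related peptide, was at 15, 13.7 and 19.2 CPM in B7hi and 125, 103 and 92.3 CPM in B7low (−2.70 ± 0.32, edgeR adjusted p = 1.4e-04). Its partner Calcrl was lower by less and lost its call without each of 6 libraries (−2.20 ± 0.54, up to 0.27 without B7low HDM 1). Endothelial markers were highest in B7low HDM 1, and any part of endothelial cells in the Calcrl difference was not tested. The endothelin receptor Ednra was at 15.6, 29.4 and 15.8 CPM against 182, 221 and 221 CPM (−3.46 ± 0.40). The populations were far apart in Ramp1 and Ednra, and these calls were kept with any single library left out.

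Several further genes, picked singly from the lower calls after their values were seen, are given as values. The adhesion molecule Ncam1 was at 2.50, 11.7 and 2.05 CPM against 85.4, 40.3 and 53.1 CPM (−3.82 ± 0.56), the glutamate receptor Grik2 at 0 to 7.83 CPM against 33.8 to 56.9 CPM, and the semaphorin and VEGF coreceptor Nrp1 at 5.00, 15.7 and 10.3 CPM against 142, 80.7 and 102 CPM (−3.53 ± 0.41). The calcium channel Ryr3 had 3 counts in B7hi against 99 in B7low (30.5-fold lower, 95% counting interval 10.2 to 151) and Lsamp 2 against 81 (37.5-fold, 10 to 315). Tsc22d3 and Sgk1, both known to be induced by glucocorticoids, were at 191, 247 and 188 CPM against 676, 552 and 651 CPM (−1.59 ± 0.25) and 29.4, 50.9 and 56.8 CPM against 133, 150 and 128 CPM (−1.60 ± 0.29). These calls were kept with any single library left out.

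Of the 226 lower genes, 83 (36.7%) were ordered B7low HDM 1 above 2 above 3, against 17.95% of all genes tested. The summed B cell markers had this order. So did the mast cell genes Cma1, Tpsb2 and Cpa3, while Mcpt4, Mrgprb1 and Slc6a4 did not. An order does not give the size of the differences between libraries, and these mast cell genes were chosen after their values were seen. The part of other cells in the 83 genes was not tested.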
